A study of Rattus norvegicus with 6 samples.

Results

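The genes described are 40 ribosome biogenesis factors and RNA polymerase I subunits, listed by symbol. Of these, 35 had a row in the deposited mRNA table through their RefSeq transcript, with 1 row each, and all 35 could be tested among 19936 mRNA genes. Nhp2, Tsr1, Bms1, Nop14 and Rrp12 had no row that could be named and were not analysed here. The RNA came from cultured ventricular myocytes of Sprague-Dawley rats aged 1 to 3 days, depleted of fibroblasts by pre-plating and held in serum-free medium. Both groups stem from these wild-type cells: 3 control samples stayed untreated and 3 received 10 µM isoproterenol, a beta-adrenergic agonist used to induce hypertrophy, for 24 h. The labels also mention passaging and the series text transfection, which they do not explain. Replicates are described as biological without a litter or culture day, so p-values measure only the spread between these samples.

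Ribosomes are built in the nucleolus, where RNA polymerase I transcribes the precursor of the large rRNAs. Small nucleolar ribonucleoproteins (snoRNPs) guide the chemical modification of that precursor, and large sets of processing factors, helicases and GTPases cut, fold and pack it into the small and the large ribosomal subunit. Growth of cardiomyocytes without division depends on a larger protein synthesis capacity, and ribosome production is a classical part of it; the transcription factor Myc is a known activator of many of these genes through the E-box CACGTG.

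Each sample was hybridised to its own 1-colour array, and the file headers show 2 scan times. The 3 controls and isoproterenol replicate 1 share the first scan, and isoproterenol replicates 2 and 3 share the second. On the arrays of the first scan 97.7% to 99.8% of the mRNA probes were well above background, against 61.3% and 70.9% on those of the second. The median negative-control signal was 27 to 30 scanner units on the first scan and 84 and 87 on the second. Of the 35 genes, 34 were well above background on all 6 arrays, and the exception, Mrto4, was so on 3 control arrays and 1 isoproterenol array. All 8 cardiomyocyte markers examined (Tnnt2, Tnni3, Myh6, Actc1, Myl2, Myl3, Actn2 and Ryr2) were well above background on every array. The number of arrays, 3 a group, limits the precision of every value given here.

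Ribosome biogenesis genes were mostly higher after isoproterenol. Of the 35, 20 rose, 0 fell and 15 did not pass (limma's moderated test over all genes, adjusted p under 0.05). The rises numbered 57.1% of the 35, beside 10.2% of all genes tested that were called higher and 5.93% called lower. Over all genes this split was 6.93% higher and 9.90% lower with a scaling percentile taken over the probes detected everywhere, and 10.6% and 3.76% under normexp; 15 and 18 of the 35 rose under these settings and 0 fell. At an unadjusted p under 0.05 the same fit put 27 of the 35 higher and 0 lower. The share of all genes at that limit was not counted, so these counts have no background beside them. The median log2 change, isoproterenol minus control, was 0.95 over the 35 genes and 0.07 over all genes. Changes ran from −1.12 for Noc2l to 1.91 for Bop1, and 32 of the 35 were above 0. In 28 of the 35 every isoproterenol array lay above every control array, beside 25.6% of all genes, and in 0 of them every isoproterenol array lay below, beside 15.8%. Of the 20 genes that rose 17 did so at least 2-fold, which 6.85% of all genes did.

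The rise was smaller on the isoproterenol array that shares the scan of the controls. The median change from the control mean was 0.60 on isoproterenol replicate 1, and 1.15 and 1.18 on replicates 2 and 3; over all genes these medians were 0.11, 0.11 and 0.06. Isoproterenol replicate 1 lay above all 3 controls in 32 of the 35 genes, beside 45.6% of all genes, and below them in 2, Pes1 and Mrto4, beside 29.7%; in Npm1 it lay among them. Replicates 2 and 3 both exceeded replicate 1 in 27 of the 35 genes, beside 47.9% of all genes, and both fell short of it in 7, beside 37.6%. Controls also differed from each other: replicate 1 was the highest control in 27 of the 35 genes, beside 41.0% of all genes, and its median deviation from the control mean was 0.17.

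The count of rises depended on single arrays and on the scan. With scan as a block, a fit whose change equals isoproterenol replicate 1 minus the control mean, 4 of the 35 genes rose (Polr1e, Nop16, Nop58 and Bop1), beside 3.66% of all genes. Among the arrays of the first scan alone Polr1e was the single gene to pass, beside 2.50% of all genes. In both fits the change rests on 1 treated array, so their p-values hold no spread between treated samples of that scan. The same limit applies to every call with scan as a block given below. Without control replicate 2 or 3 limma called 0 of the 35 genes, beside 1.39% and 1.03% of all genes called higher. At an unadjusted limma p under 0.05, 25 and 24 of the 35 were higher, again without a counted share of all genes at that limit. Leaving out control replicate 1, isoproterenol replicate 2 or isoproterenol replicate 3 left 10, 4 or 2 calls, beside 4.28%, 3.51% and 2.27% of all genes. Leaving out isoproterenol replicate 1, which puts the groups on different scans, gave 28 higher and 2 lower, beside 29.4% and 22.7% of all genes. The 20 genes that rose had a change above 0 under all 17 alternatives, some of which could not move the change by their design.

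**Figure D1:**
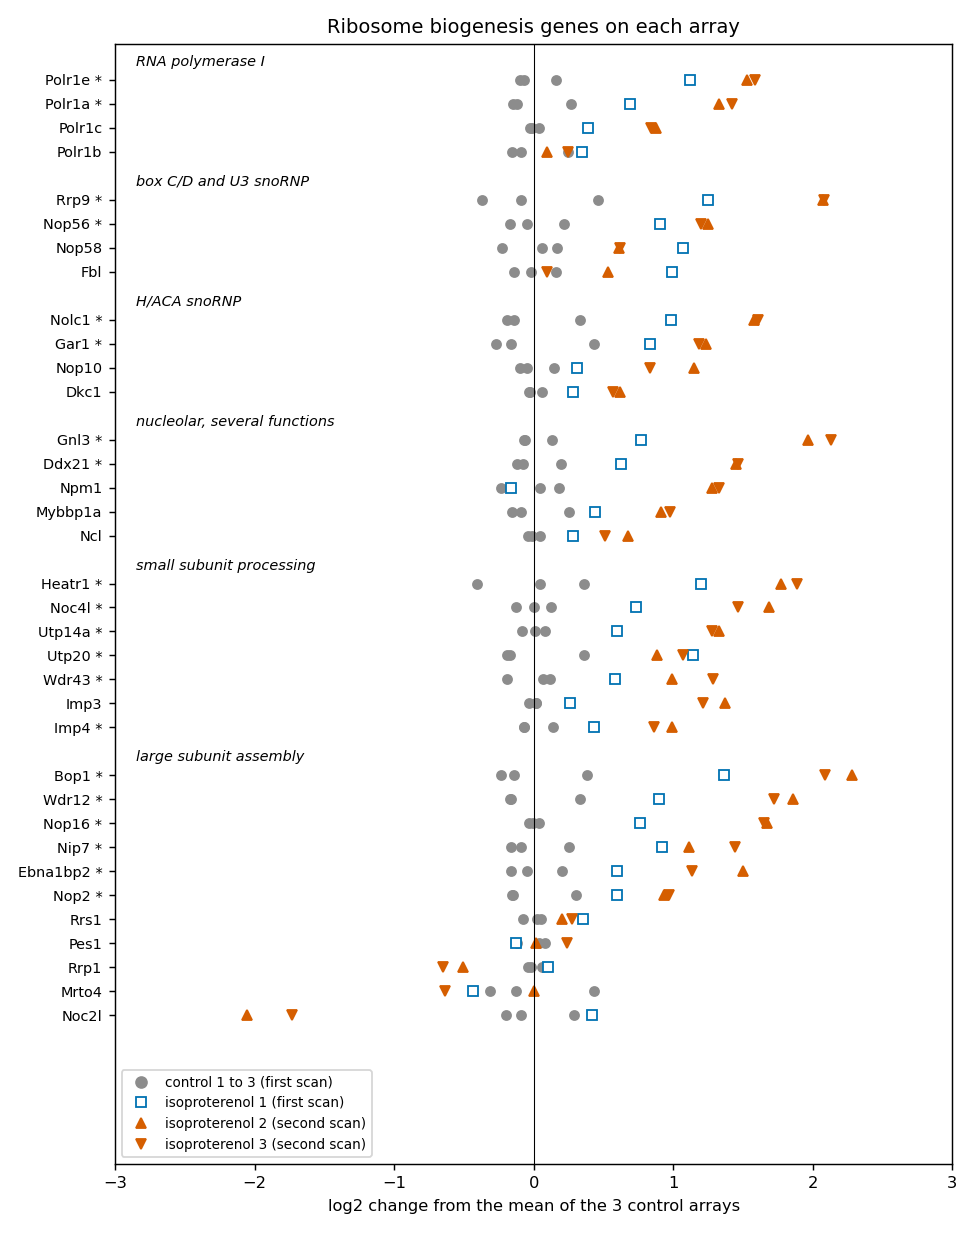
Log2 change of each of the 35 genes from the mean of the 3 control arrays (x axis), by role (y axis), with 1 symbol per array; an asterisk marks an adjusted p under 0.05. Isoproterenol replicate 1 (open squares) lies right of the controls in 32 genes, and replicates 2 and 3 (triangles) lie further right in 27 and left of replicate 1 in 7.

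**Figure D2:**
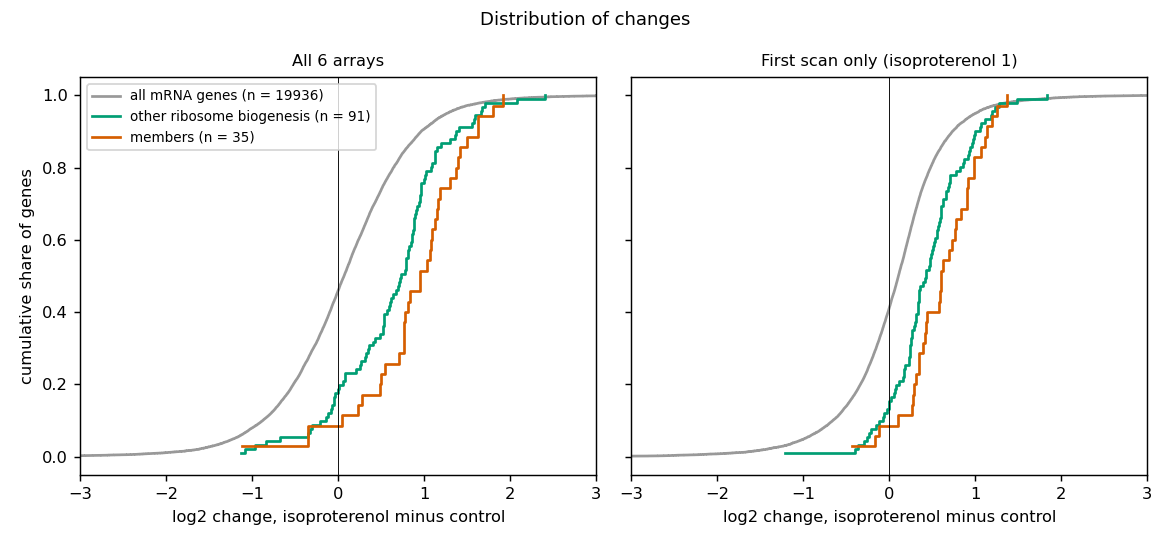
Cumulative share of genes (y axis) by log2 change, isoproterenol minus control (x axis), for all mRNA genes, the 91 other ribosome biogenesis genes and the 35 members. The left panel uses all 6 arrays, with medians of 0.07, 0.73 and 0.95, and the right panel sets isoproterenol replicate 1 against the controls of the same scan, with medians of 0.11, 0.43 and 0.60.

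Among RNA polymerase I subunits, Polr1e and Polr1a rose and Polr1c and Polr1b did not pass. Array values are log2 signals relative to the 75th percentile of the same array. They can be compared between arrays of the same scan but not between genes. Between the scans the comparison depends on the scaling and the background correction. Polr1e (NM_001107938), a subunit of the peripheral module that aids initiation and elongation, read −1.01, −1.25 and −1.27 in control replicates 1 to 3 and −0.06, 0.35 and 0.41 in isoproterenol replicates 1 to 3. The groups were well apart, by 1.41 ± 0.20 (SE, n = 3 per group, limma adjusted p = 0.00857), or 2.66-fold. Its change was 1.12 on isoproterenol replicate 1, the only treated array on the scan of the controls.

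Polr1a, the largest catalytic subunit, had controls at −1.48, −1.90 and −1.87 and isoproterenol arrays at −1.06, −0.43 and −0.33. Every treated array was above every control, and the change was 1.15 ± 0.25 (limma adjusted p = 0.0274). Polr1c, which the enzyme shares with RNA polymerase III, stood at 2.17, 2.23 and 2.18 without and 2.58, 3.08 and 3.04 with isoproterenol. Its groups did not overlap either, yet at 0.70 ± 0.19 it missed the threshold (limma adjusted p = 0.0505). Polr1b, the second-largest subunit, gave −0.53, −0.93 and −0.87 in controls and −0.43, −0.68 and −0.53 in treated samples. Here the groups overlapped and the change was 0.23 ± 0.18 (limma adjusted p = 0.392), or −0.01 when scaled over probes detected on all arrays.

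Of the proteins of box C/D snoRNPs, which carry out ribose methylation, Nop56 and the U3-specific protein Rrp9 rose. Rrp9 (NM_001108778) had control values of −0.02, −0.86 and −0.58 and isoproterenol values of 0.76, 1.59 and 1.60. The control spread was wide, but every treated array lay above every control. The change of 1.80 ± 0.32 was 3.49-fold (limma adjusted p = 0.0149), and on isoproterenol replicate 1 it was 1.25. Nop56, a core scaffold protein, moved from 1.80, 1.53 and 1.41 to 2.48, 2.83 and 2.78. That is a change of 1.12 ± 0.19 (limma adjusted p = 0.0136) in which isoproterenol replicate 1 was the lowest treated array and still above every control.

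Its partner Nop58 and the methyltransferase fibrillarin, Fbl, showed another order of the arrays. Nop58 gave 3.32, 2.92 and 3.21 in controls and 4.22, 3.76 and 3.77 with isoproterenol, so replicate 1 was the highest treated array. Its change was 0.77 ± 0.21 (limma adjusted p = 0.0502) over all arrays 1.07 with scan as a block (limma adjusted p = 0.0408) and 0.50 under quantile normalization (limma adjusted p = 0.214). Fbl read 4.19, 4.01 and 3.89 in controls and 5.02, 4.56 and 4.12 in treated samples. Only isoproterenol replicate 3 lay within the control range, and the change was 0.54 ± 0.26 (limma adjusted p = 0.178), or 0.99 on replicate 1 and 0.21 under quantile normalization. In the authors' deposited table isoproterenol replicate 3, at 12.6, lay below every control, of which the lowest was at 12.8.

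In the H/ACA group, whose snoRNPs convert uridine to pseudouridine, Nolc1 and Gar1 rose. Nolc1, a chaperone of snoRNP assembly, lay at 0.89, 0.37 and 0.41 in controls and at 1.54, 2.14 and 2.17 after isoproterenol, a change of 1.39 ± 0.25 (limma adjusted p = 0.0155). Gar1, a core protein of the particle, went from 0.85, 0.26 and 0.15 to 1.25, 1.65 and 1.60, by 1.08 ± 0.24 (limma adjusted p = 0.0287). Control replicate 1 was the highest control for both genes and still below every treated array.

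Nop10, the smallest core protein, measured 1.40, 1.65 and 1.45 in controls and 1.81, 2.65 and 2.34 with isoproterenol (0.77 ± 0.25, limma adjusted p = 0.0750). Dkc1, the pseudouridine synthase dyskerin, measured −0.44, −0.35 and −0.43 against −0.12, 0.21 and 0.17 (0.49 ± 0.17, limma adjusted p = 0.0900). Neither passed, although in both the treated arrays were all above the controls.

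Nucleolar proteins of several functions were led by Gnl3 and Ddx21. Gnl3, the GTPase nucleostemin, had controls at 4.33, 4.14 and 4.13 and isoproterenol arrays at 4.97, 6.17 and 6.33, a change of 1.62 ± 0.36 (limma adjusted p = 0.0287). The 2 arrays of the second scan set its size, since on replicate 1 the change was 0.77. Ddx21, an RNA helicase of rRNA transcription and processing, moved from 1.09, 0.82 and 0.78 to 1.52, 2.34 and 2.36, by 1.18 ± 0.27 (limma adjusted p = 0.0310). Mybbp1a, a nucleolar partner of transcription factors, was at 0.44, 0.03 and 0.09 without and 0.62, 1.10 and 1.16 with the agonist. Its groups were separate, and the change of 0.77 ± 0.22 did not pass (limma adjusted p = 0.0558).

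The abundant nucleolar proteins nucleolin and nucleophosmin did not pass. Ncl, nucleolin, changed by 0.49 ± 0.17 (limma adjusted p = 0.0946), with all treated arrays above the controls on this scale. Under quantile normalization its change was 0.040 (limma adjusted p = 0.837), and in the authors' deposited table isoproterenol replicate 3 lay just below all 3 controls. Npm1, nucleophosmin, read 5.73, 6.01 and 6.15 in controls and 5.80, 7.25 and 7.29 in treated samples. Replicate 1 lay inside the control range and the other treated arrays well above it, which gave 0.81 ± 0.41 (limma adjusted p = 0.198) over all arrays, −0.16 within the first scan and 0.38 under quantile normalization. Npm1 has near-identical processed copies in mammalian genomes, and no probe sequence was used here.

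Small subunit processing factors had the highest share of rises, 6 of the 7 measured; whether that share differs from the other groups was not tested. Heatr1, which links rRNA transcription to early processing, had controls at −0.43, −1.19 and −0.74 and isoproterenol arrays at 0.41, 0.98 and 1.10. It rose by 1.62 ± 0.28 (limma adjusted p = 0.0135), or 3.07-fold, with no overlap. Utp20, a large scaffold protein of the processome, stood at 2.17, 1.61 and 1.63 without and 2.94, 2.69 and 2.88 with isoproterenol, a change of 1.03 ± 0.21 (limma adjusted p = 0.0223). Unlike most of the genes it was highest on isoproterenol replicate 1. The call of Utp20 was lost under quantile normalization, in the deposited table and when scaled over probes detected on all arrays. Noc4l, a partner of the missing Nop14, went from 0.24, 0.12 and −0.01 to 0.85, 1.81 and 1.58, by 1.30 ± 0.27 (limma adjusted p = 0.0240).

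Utp14a, a cofactor of the helicase that releases U3, rose by 1.07, Wdr43, a processome protein, by 0.95, and Imp4, a U3 snoRNP protein, by 0.76, with limma adjusted p between 0.0279 and 0.0480. Wdr43 was dim on the second scan, at −2.31 and −2.02 in isoproterenol replicates 2 and 3. The lowest signals well above background on these arrays were −2.77 and −3.41. Its call was lost under quantile normalization, under normexp and in the deposited table. Imp3, another U3 snoRNP protein, was the member that did not pass. It measured 5.33, 5.33 and 5.28 in controls and 5.58, 6.68 and 6.53 after isoproterenol (0.95 ± 0.30, limma adjusted p = 0.0740). The controls were within 0.03 (SD) of each other, and replicate 1 was above them by 0.26 while the other treated arrays were above them by 1.29 on average. Under quantile normalization Imp3 was at 0.53 and Imp4 at 0.45, where Imp4 did not pass either (limma adjusted p = 0.0995).

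Of the large subunit assembly factors 6 of 11 rose and 5 did not pass, with changes from −1.12 to 1.91. Bop1 (NM_001024250), with Pes1 and Wdr12 a part of the PeBoW complex that matures the large subunit rRNA, had control values of 2.98, 2.46 and 2.37. Its isoproterenol values were 3.97, 4.88 and 4.69. Both scans of treated samples were clear of the controls, by 1.91 ± 0.30 over all arrays (limma adjusted p = 0.0108, 3.76-fold), and 1.37 with scan as a block (limma adjusted p = 0.0488). Wdr12 rose by 1.49 ± 0.30 (limma adjusted p = 0.0214).

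Pes1, the third protein of that complex, had the smallest change of all 35 genes. It read 1.88, 2.04 and 2.08 in controls and 1.88, 2.02 and 2.24 in treated samples, a change of 0.04 ± 0.18 (limma adjusted p = 0.870). The groups overlapped throughout, and its sign turned under 8 alternatives. The probes of Bop1, Wdr12 and Pes1 were not compared with each other by a test.

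Nip7 and Nop16, which act on pre-60S particles, both rose. Nip7 moved from 0.51, 0.10 and 0.17 to 1.18, 1.37 and 1.71, by 1.16 ± 0.21 (limma adjusted p = 0.0164). Nop16 had controls of 1.99, 2.04 and 1.96 and isoproterenol values of 2.76, 3.67 and 3.65, a change of 1.36 ± 0.27 (limma adjusted p = 0.0211). Its controls were tightly grouped (SD 0.04), and it passed with scan as a block at 0.77 (limma adjusted p = 0.0400). Ebna1bp2, an assembly factor, at 1.08 and Nop2, an rRNA cytosine methyltransferase, at 0.83 also rose, with limma adjusted p of 0.0371 and 0.0408. Both calls were lost under median scaling and when scaled over probes detected on all arrays.

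The other large subunit factors did not pass, and 3 of them had changes below 0. Noc2l, an assembly factor that also acts on histone acetylation and singled out here after its values were seen, measured 0.22, −0.17 and −0.28 in controls and 0.34, −2.13 and −1.81 with isoproterenol. Treated arrays of the first and the second scan lay on opposite sides of the controls, so the change of −1.12 ± 0.62 (limma adjusted p = 0.230) was 0.42 on replicate 1 and −1.90 on the other treated arrays. Rrp1 followed the same order at a smaller size, 0.10 on replicate 1 and −0.58 on the others (limma adjusted p = 0.301 over all arrays). Rrs1 was at 0.28 (limma adjusted p = 0.236) and at −0.04 under quantile normalization. Mrto4, which prepares the ribosomal stalk, was at −0.36 (limma adjusted p = 0.364), at 0.57 under normexp background correction, and not well above background on the arrays of the second scan.

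**Figure D3:**
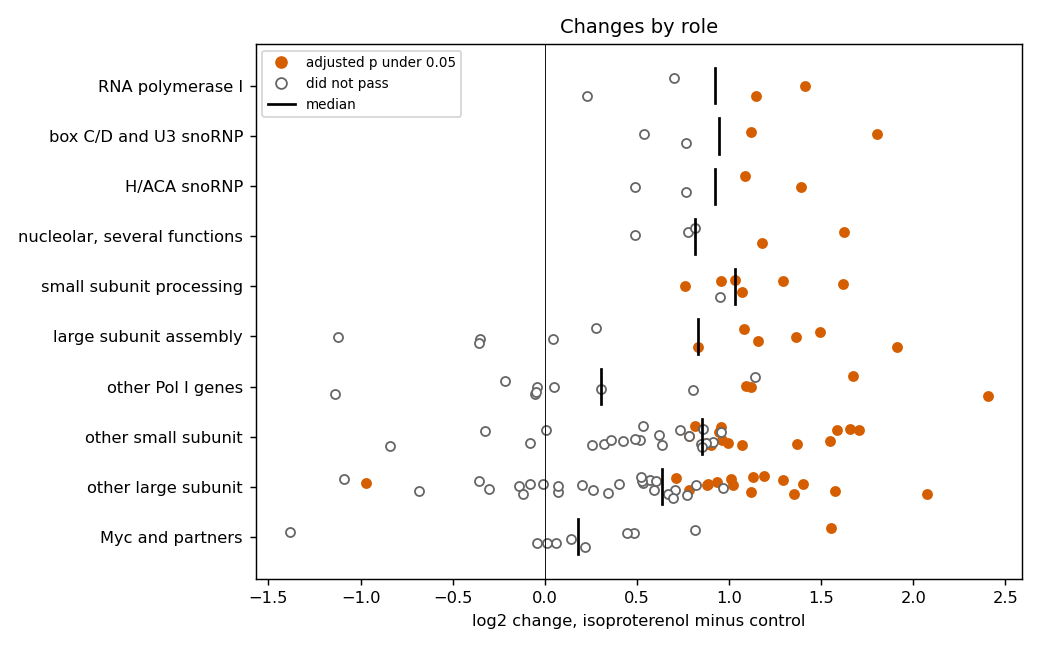
Log2 change, isoproterenol minus control over all 6 arrays (x axis), for each gene of the 6 roles and of 4 further lists (y axis); filled points had an adjusted p under 0.05 and black bars are medians. The medians of the 6 roles lie between 0.81 and 1.03, above that of Myc and its partners at 0.18.

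The promoters of these genes were searched for the E-box CACGTG, which reads the same on both strands. RefSeq sequences of the GRCr8 assembly, from 250 bases before to 50 after the gene start, were given for 37 of the 40 listed genes. The E-box was present in 11 of these 37 (29.7%), in 30 of 106 promoters of the other ribosome biogenesis genes (28.3%), in 8.48% of 11256 promoters of genes tested here and in 6.42% of all 33469 promoters. Among the genes that rose 4 of 18 promoters held it (22.2%), and among those measured that did not pass 5 of 14 (35.7%), so the share was not larger in the genes that rose. These 4 promoters are shown because they belong to genes that rose and hold the motif, which is in capitals. For Utp20 and Gnl3 the 250 bases before the start are printed, and for Ebna1bp2 and Nop2, where the motif lies after the start, 30 bases. The motif begins 127 bases before the start in Utp20 (chr7:25102850-25103099, minus strand), 25 before it in Gnl3 (chr16:6219783-6220032, minus strand), at base 31 after it in Ebna1bp2 (chr5:137433552-137433581, plus strand) and at base 39 in Nop2 (chr4:159618986-159619015, plus strand). A match describes these letters and is no evidence of binding.
Utp20: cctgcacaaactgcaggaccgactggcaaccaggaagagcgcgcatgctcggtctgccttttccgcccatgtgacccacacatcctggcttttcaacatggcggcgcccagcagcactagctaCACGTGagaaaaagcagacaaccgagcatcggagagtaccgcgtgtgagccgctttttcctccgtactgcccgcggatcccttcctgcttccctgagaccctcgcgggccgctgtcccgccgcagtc
Gnl3: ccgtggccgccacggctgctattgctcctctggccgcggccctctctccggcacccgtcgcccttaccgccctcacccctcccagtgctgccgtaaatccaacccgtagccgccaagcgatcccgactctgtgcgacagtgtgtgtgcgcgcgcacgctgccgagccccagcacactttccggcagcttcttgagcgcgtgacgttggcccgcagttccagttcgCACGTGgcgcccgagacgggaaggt
Ebna1bp2: gcgtcttgctggCACGTGgagtggcagccg
Nop2: tgaactcttccccaagtgCACGTGgagcgg

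Genes of the same pathway outside the 35 also tended upward. Of 115 further ribosome biogenesis genes 91 were tested, 34 (37.4%) rose, 56 did not pass and 1 fell; their median change was 0.73. Of 13 other genes of RNA polymerase I transcription 4 rose and 0 fell, with 9 that did not pass. Polr1g, which pairs with Polr1e in the enzyme, had controls at 1.50, 1.12 and 1.10 and isoproterenol arrays at 3.07, 4.01 and 3.83. The gap between the groups, 2.40 ± 0.28 (limma adjusted p = 0.00574), was the largest in these lists. On isoproterenol replicate 1 alone the change was 1.84. Polr1f, a subunit that contacts the initiation factor, rose by 1.67 (limma adjusted p = 0.0133) and Sirt7, a nucleolar deacylase, by 1.12 (limma adjusted p = 0.0301); with scan as a block Polr1f was at 1.12 (limma adjusted p = 0.0499) and Sirt7 at 0.58, where it did not pass (limma adjusted p = 0.0714). The initiation factors Rrn3 at 0.05 (limma adjusted p = 0.840) and Ubtf at −0.04 (limma adjusted p = 0.874) had overlapping groups and did not pass.

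Of 36 other small subunit factors 15 rose and 0 fell, with 21 that did not pass. Those with the smallest p were Emg1, an rRNA methyltransferase, at 1.66, Pno1, which helps the final cut of small subunit rRNA, at 1.37, and Wdr46, a processome scaffold, at 1.55, with limma adjusted p from 0.0114 to 0.0167. With scan as a block Emg1 passed (limma adjusted p = 0.0490), and Pno1 and Wdr46 did not (0.0745 and 0.0853). Of 42 other large subunit factors 15 rose, 1 fell and 26 did not pass. Ppan, a pre-60S assembly factor, rose by 1.35, Lyar, a nucleolar zinc finger protein, by 1.13, and Pak1ip1 by 2.08, with limma adjusted p from 0.00887 to 0.0114. With scan as a block Ppan and Lyar passed (limma adjusted p = 0.0395 and 0.0282) and Pak1ip1 did not (0.0584). The gene that fell was Nmd3, the adaptor for nuclear export of the large subunit. It had controls at 3.24, 3.28 and 3.26 and isoproterenol arrays at 2.05, 2.36 and 2.48, well below them (−0.97 ± 0.18, limma adjusted p = 0.0167, and −1.22 with scan as a block, limma adjusted p = 0.0199).

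Myc itself was above the controls on every treated array without passing the test. It read −1.81, −2.41 and −2.49 in controls and −1.44, −1.51 and −1.32 with isoproterenol, a change of 0.81 ± 0.23 (limma adjusted p = 0.0524, and 0.173 with scan as a block). Of 10 genes tested among Myc and its partners 1 rose, 0 fell and 9 did not pass, a share of 10.0% beside 10.2% of all genes. Among those that did not pass, Mxi1, Mnt and Mxd3 were not well above background on isoproterenol replicates 2 and 3. Mycl was not so on replicate 2. The gene that rose was Mlxipl, a glucose-responsive transcription factor of the extended network, at 1.55 ± 0.23 (limma adjusted p = 0.0100). Max, the dimer partner of Myc, was at 0.01 (limma adjusted p = 0.969).

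Markers of other cell types and of dividing cells were read on the same arrays, as linear signals relative to the 75th percentile and summed over each list. The sum of 5 markers of dividing cells was 2.27 to 3.08 in controls and 4.73 to 5.17 after isoproterenol; Cdk1, Ccnb1 and Birc5 rose, while Mki67 at 0.01 and Aurkb at 0.39 did not pass. With scan as a block Cdk1 passed (limma adjusted p = 0.0470), and Ccnb1 and Birc5 did not (0.0781 and 0.149). Sums of 6 smooth muscle and pericyte markers were 83.5 to 149 in controls, 217 on isoproterenol replicate 1 and 498 and 441 on the others; 2 rose, Tagln and Acta2, genes that immature cardiomyocytes also express; neither passed with scan as a block (limma adjusted p = 0.0629 and 0.304). Those of 10 fibroblast markers were 156 to 165 and 133 to 178, with 2 that rose and 4 that fell. The sum is weighted most by Col1a2, at 0.65, which did not pass. The 4 that fell were Lum at −1.60, Postn at −1.32, Col3a1 at −1.10 and Tcf21 at −0.75. On isoproterenol replicate 1 they were at −1.54, −0.93, −0.92 and −0.81. Thy1 at 1.06 and Ddr2 at 1.03 rose, with 0.79 and 0.53 on replicate 1. Endothelial sums (6 markers, 1 fell) were 14.9 to 16.7 and 14.0 to 15.5, and macrophage sums (6 markers, 1 rose) 21.5 to 31.5 and 30.9 to 49.6. The 8 cardiomyocyte markers summed to 1614 to 2006 in controls and to 2058 on isoproterenol replicate 1, close to the highest control, and 3384 and 3280 on replicates 2 and 3 of the second scan. The 1 that rose, Myh6, did not pass with scan as a block (limma adjusted p = 0.0687). Every marker tested was well above background on all 3 control arrays, but not on every treated array of the second scan. Kdr, the endothelial marker that fell, was not so on isoproterenol replicates 2 and 3, and its change was −1.27 on replicate 1. Tcf21, a fibroblast marker that fell, was not so on replicate 2. Vwf, Myh11, Ptprc and Mki67 also lacked such signal on at least 1 array of that scan. The part of these differences in the changes of the ribosome biogenesis genes was not tested, and in bulk RNA fewer cells of a type and less RNA per cell cannot be told apart.

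**Figure D4:**
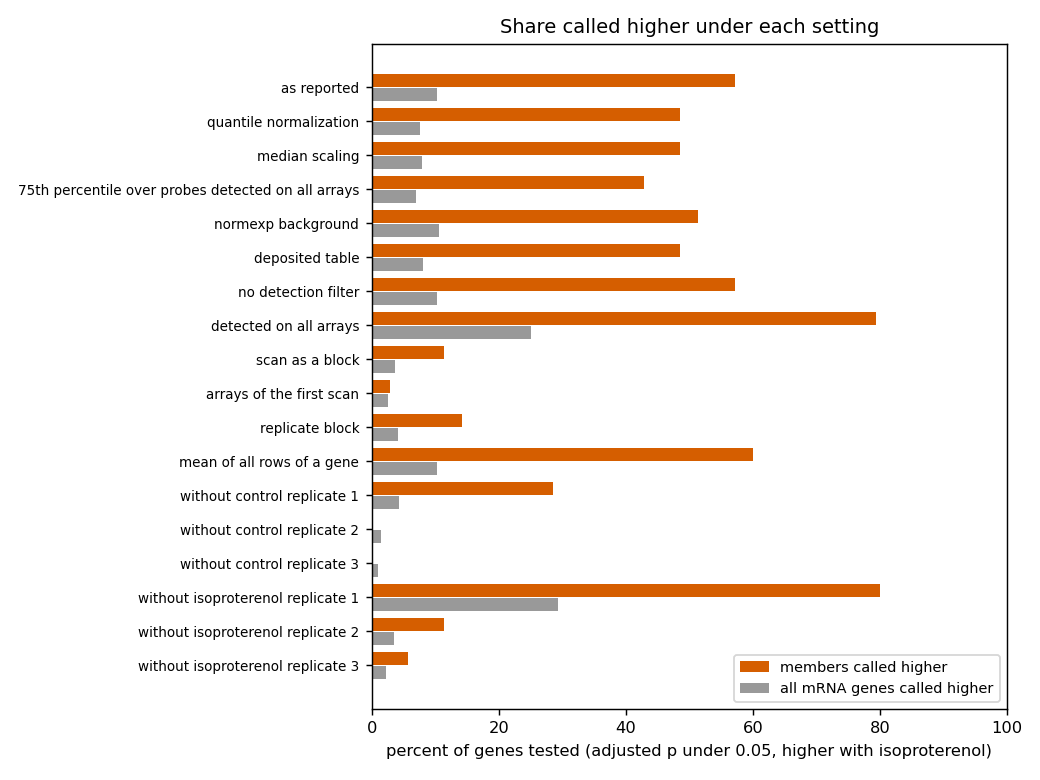
Percent of genes called higher with isoproterenol (x axis, limma adjusted p under 0.05) under each setting (y axis), for the ribosome biogenesis genes and for all mRNA genes. The share of the 35 genes is 57.1% as reported and 0 without control replicate 2 or 3, beside 10.2%, 1.39% and 1.03% of all genes.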

How the data were processed

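Cy3-labelled RNA of 6 samples was measured on 6 arrays. Spots were quantified in Agilent Feature Extraction 11.0.1.1, per the file headers, and the scanner files deposited by the authors hold background-subtracted linear intensity values for 43040 spots. The authors also deposited a table of normalized log2 values for mRNAs, made with a tool not given in the sources used here. Its values follow plain quantile normalization of the log2 processed signal over 38321 probes (99% of values above 5 lie within 0.00195), apart from values near background on the second scan.

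Scanner files name probes by design numbers, so 20633 of 20734 table rows were matched to probes by their values on the 4 arrays of the first scan (distance under 0.05 and under 0.25 of that to the next probe). All 20632 neighbouring pairs of matched rows follow the spot order. Symbols came from a RefSeq gene table (assembly GRCr8), which named 13956 of 14757 NM rows and none of 5977 Ensembl rows; the file headers name build rn4 and no position on the array's build is given. Log2 processed signal minus the 75th percentile of the array was used, without control spots and spots marked as outliers (no member had one). Probes well above background on at least 3 arrays were tested (this removed no gene), each gene by its brightest probe. Isoproterenol was compared with control by limma 3.58.1 in R 4.3.3, two-sided, with Benjamini-Hochberg adjustment over mRNA genes and a threshold of 0.05. The fit was tested on simulated data with independent noise and no scan effect. That test therefore cannot show how the fit behaves when treated arrays are split by scan.

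The members and lists were chosen with earlier results of these data known. Named genes were all members, with values per array for RNA polymerase I and, in every other role, the 3 with the smallest and the 1 with the largest p; of other lists, the 3 with the smallest p in each direction, and Myc. Genes outside this rule are Noc2l, Rrn3, Ubtf, Max and the cell type markers. Alternatives covered scaling, background, the deposited table, the detection filter, scan, the replicate number and each replicate left out.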

Additional observations from a re-analysis of the deposited data

How the results depend on the processing

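The 35 genes had 594 changes under the 17 alternatives, of which 404 kept direction and side of the threshold, 152 lost the call, 20 gained one and 18 turned sign. These alternatives are not independent checks. The detection filters, the mean of all rows and the replicate block could not move the change of a member, only its p. The fit with scan as a block and that within the first scan share the same change. With scan as a block 4 members and 8 other ribosome biogenesis genes rose and the median of the members was 0.60; within the first scan these were 1, 4 and 0.60. No pairing of the samples is stated. Same-numbered arrays had correlations of their deviations of 0.01, 0.05 and −0.02. With so few replicates and treated arrays split by scan, these values cannot settle whether cultures were paired. With the replicate block 5 members rose, beside 4.11% of all genes, and 6 other genes rose and 0 fell. Leaving out 1 replicate gave 0 to 28 members higher and 0 to 2 lower, a median of 0.84 to 1.21, and 1 to 61 other genes higher and 0 to 7 lower. Probes detected on all arrays gave 54 other genes higher, beside 25.0% of all 12316 genes tested so. Quantile normalization, a percentile taken over probes detected everywhere, normexp and the deposited table each gave 2 other genes lower.

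Sign turned for Pes1 (−0.12 under quantile normalization, −0.19 with that percentile, −0.059 under normexp, −0.12 in the deposited table, −0.12 with scan as a block and within the first scan, and −0.016 without control replicate 1 and −0.053 without isoproterenol replicate 3, in a range of −0.053 to 0.13 when 1 replicate was left out). It also turned for Mrto4 (0.57 under normexp), Polr1b (−0.0088 with that percentile), and Rrs1 (−0.041 under quantile normalization, −0.042 in the deposited table). With scan as a block and within the first scan Noc2l was at 0.42, Npm1 at −0.16 and Rrp1 at 0.10. The cause was not tested.

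The median of all genes was 0.07 as reported, −0.08 under quantile normalization, −0.17 with that percentile and 0.37 under normexp. That of the members exceeded it by 0.89, 0.88, 0.89 and 0.43. Another percentile shifts all genes of an array equally, so the 0.89 with that percentile was fixed in advance. The split of all genes into higher and lower was 10.2% and 5.93% as reported, 6.93% and 9.90% with that percentile and 10.6% and 3.76% under normexp. Signal over background limits the arrays of the second scan. Among the members, Mrto4 was not well above background there, and Wdr43 and Noc2l were dim though marked well above it.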
